A study of Oryza sativa Indica Group with 27 samples.

Results

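Rice seedlings of the cultivars Nonabokra and IR29 were compared in how their transcripts responded to 3 h in 200 mM sodium chloride. For each probe set the change from control to salt in Nonabokra was set against the change in IR29, and the difference of the changes is called the response difference (Nonabokra minus IR29). It rests on 12 of the 27 arrays of the series, chosen by their labels as 3 arrays in each of 4 groups. These were Nonabokra in 200 mM sodium chloride for 3 h, Nonabokra kept in growth medium alone, IR29 in 200 mM sodium chloride for 3 h, and IR29 kept in growth medium alone. All were whole seedlings 7 days old, controls stayed in the medium for 6 h, and the labels call the replicates biological. A description field of the 3 h samples speaks of drought, but their titles, characteristics and treatment give salt. Both cultivars are indica rice, and no transgene or mutation is named. Only total RNA of whole plants was measured, so fewer cells of a type and less RNA per cell cannot be told apart, and RNA of shoot, root and seed remnant is mixed.

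Nonabokra is a landrace known for salt tolerance, and IR29 is a breeding line widely used as a sensitive standard. Salt lowers the water potential around the root and brings sodium into the plant, and the hormone abscisic acid then drives genes for protective proteins such as dehydrins and other late embryogenesis abundant (LEA) proteins. Gibberellin, which opposes abscisic acid in germinating grain, drives the alpha-amylases and proteases that mobilise the reserves of the seed. Rice also makes diterpenoid phytoalexins, momilactones and phytocassanes, antimicrobial compounds whose genes lie in biosynthetic clusters and which follow infection, jasmonate and other stresses.

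The deposited values are linear intensities, and they were analysed as log2(intensity + 16), a scale that understates changes of dim transcripts. Array medians lay between 7.11 and 7.77 and upper quartiles between 159 and 175, so a mean intensity under about 20 is close to the dim end. The 3 arrays of a group correlated at 0.996 to 0.999. The 18S ribosomal RNA control probe set, which was not tested, did not stay level: it read 31.1, 716 and 402 in salt-treated Nonabokra and 97.9, 935 and 87.5 in its control, against 20.8, 34.6 and 13.1 in salt-treated IR29 and 1905, 1858 and 3711 in the IR29 control. In sum the photosynthesis genes overlapped between the IR29 groups and lay slightly lower after salt than in the control in Nonabokra, and single members moved. Of 22 photosynthesis genes 6 rose and 10 fell in Nonabokra, and 8 rose and 7 fell in IR29. The 22 photosynthesis genes summed to intensities of 163805 to 175116 in salt-treated Nonabokra, 175491 to 184082 in its control, 170743 to 176892 in salt-treated IR29 and 169836 to 172964 in the IR29 control. The 4 root markers fell in IR29, while 2 rose and 2 fell in Nonabokra, as given with their genes, and the part of ribosomal RNA carry-over or of organ shares in the results was not tested.

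With limma's moderated test over 57194 probe sets, 14543 passed for the response difference at a Benjamini-Hochberg adjusted p under 0.05, which is 25.4% of those tested. Of these 8371 were higher (14.6% of all tested) and 6172 lower (10.8%). That split depended on scaling, with 57.6% higher as deposited, 53.4% after quantile normalization, 41.8% without the dimmest 40% of probe sets and 32.7% after median centring, so the text leads with single genes and with differences of at least 2-fold. The count of higher probe sets also hung on single arrays. It was 14634 without replicate 3 of the IR29 control, 4930 without replicate 2 of the Nonabokra control, 5228 without replicate 1 of the IR29 control, 4887 without replicate 2 of salt-treated Nonabokra and 5220 without replicate 2 of salt-treated IR29. At 2-fold or more the split of probe sets turned too, with 974 higher and 1157 lower as deposited, 1117 and 984 after quantile normalization and 675 and 658 with a pseudocount of 64. Taken by gene, with the brightest probe set standing for each of 17905 genes, 37.4% passed, 15.5% higher and 22.0% lower, and the median response difference was -0.03. Every count of higher and lower genes in a gene list below is to be read beside these 2 shares. At 2-fold or more 1276 genes passed (7.13%), of which 603 were higher (3.37%) and 673 lower (3.76%). Of all genes 57.6% passed in Nonabokra's own response to salt, 27.4% higher and 30.2% lower, and 64.1% in that of IR29, 32.7% higher and 31.4% lower. The 2 responses, which share no array, correlated at 0.69 across the 17905 genes, which are not independent replicates.

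Among those 1276 genes a difference of size alone was the largest class, at 46.7%, though not a majority. The response passed in the same direction in both cultivars for 596 genes: 301 rose in both and rose more in Nonabokra, 200 fell in both and fell more in Nonabokra, and 61 rose and 34 fell more strongly in IR29. In 311 genes, 24.4%, the cultivars moved in opposite directions, 111 rising in Nonabokra and falling in IR29 and 200 falling in Nonabokra and rising in IR29. Among all 17905 genes 680 passed in opposite directions. Choosing genes by a large response difference favours opposite directions, so the 24.4% is in part built in. The response passed in one cultivar alone for the other 369.

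**Figure D1:**
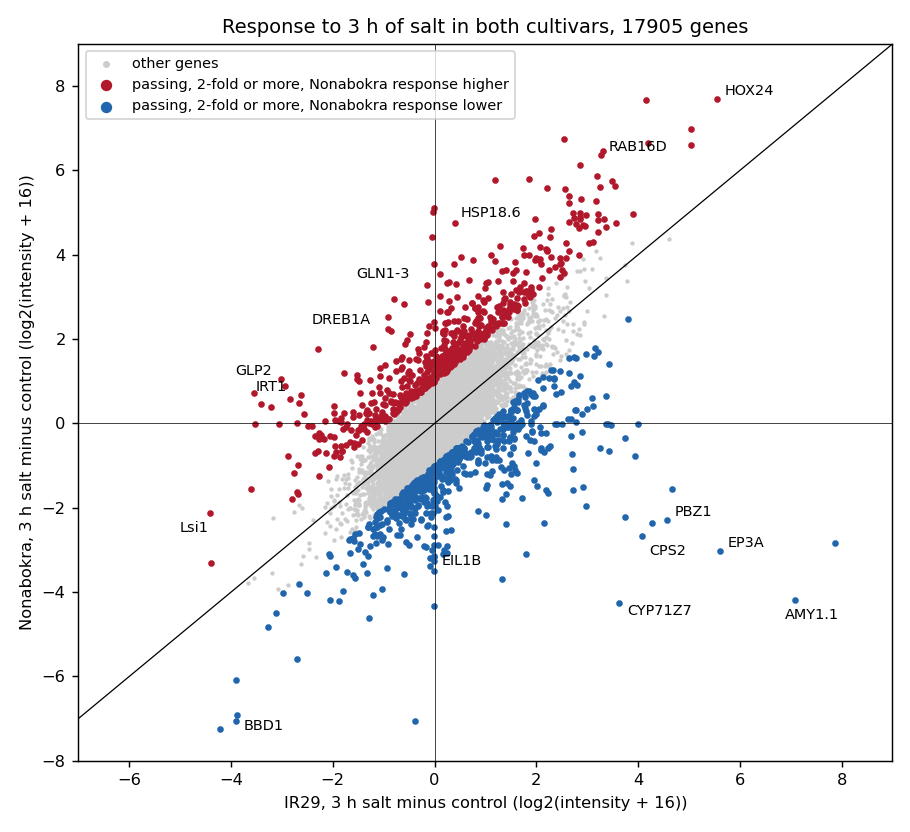
Change of each of 17905 genes after 3 h of salt in Nonabokra (vertical axis) against that in IR29 (horizontal axis), both as salt minus control on the log2(intensity + 16) scale. Red genes had a passing response difference of at least 2-fold above the diagonal of equal response (603 genes), blue genes one below it (673 genes), and AMY1.1, EP3A and CYP71Z7 lie farthest from the diagonal among the labelled genes.

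For many genes the order of the levels turned over. Of the 673 genes with a lower response in Nonabokra, 450 had a higher level in Nonabokra than in IR29 under control conditions, and 311 of these had a lower level in Nonabokra after 3 h of salt. Of the 603 with a higher response, 349 started lower in Nonabokra, and 215 of these ended higher after salt. In all 526 of 1276 genes, 41.2%, were passing in opposite order before and after salt. For comparison, 51.7% of all 17905 genes differed between the control groups and 46.7% between the salt groups. The control arrays enter both the starting level and the response, so the link between them is in part built in. Sequence differences between the cultivars under the probes were not examined.

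The single gene farthest apart was one that mobilises seed reserves. The alpha-amylase gene AMY1.1, whose enzyme breaks down starch in germinating grain, had the lowest response difference of all probe sets. Its intensities were 205, 145 and 179 in Nonabokra after salt, against 3329, 3362 and 3629.7 in the Nonabokra control. They were 25808, 23584 and 23001 in salt-treated IR29, against 135, 179 and 172 in the IR29 control. Salt-treated IR29 stood above all other arrays, and the levels of salt-treated Nonabokra and unstressed IR29 overlapped. The change was -4.18 in Nonabokra and 7.09 in IR29 on the log2(intensity + 16) scale, a response difference of -11.27 ± 0.14 (SE, 3 arrays per group; limma adjusted p = 7.5e-21). EP3A, a cysteine proteinase gene of germinating seed, had intensities of 8.33, 5.83 and 5.38 in salt-treated Nonabokra and 211, 139 and 162 in its control. In IR29 the values were 1068, 1139 and 905 after salt and 5.87, 5.35 and 5.31 in the control. The dim readings of both cultivars lay at the floor of the array, and the groups of one cultivar did not overlap. The response difference of EP3A was -8.64 ± 0.13 (limma adjusted p = 5.9e-20).

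LOC4330830, the measured gene next to AMY1.1 in the RefSeq table and without a name there, had the lowest limma adjusted p named here, 3.4e-25. Its mean intensity was 32.4 in salt-treated Nonabokra and 331 in its control, against 5515 in salt-treated IR29 and 7.59 in the IR29 control, a response difference of -10.71. Of the 7 measured genes in the stretch of 9 genes centred on AMY1.1, these were the 2 at 2-fold or more, and 4 did not pass. If the 2 genes are near copies their probes could share signal, and their sequences were not compared. The dim amylase genes AMY1.3 and AMY1.4 also had lower response differences, with their larger change in IR29. AMY1.3 averaged 10.3 in salt-treated Nonabokra and 5.31 in its control, against 156 in salt-treated IR29 and 8.92 in the IR29 control (response difference -2.47, with 0.00 by its dimmer probe set). For AMY1.4 the means were 4.69 and 4.72 in salt-treated and control Nonabokra, and 41.5 and 4.88 in salt-treated and control IR29 (response difference -1.46).

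Over the list of 8 alpha-amylases and germination proteases, 5 were lower in response difference and none higher, with a median of -1.25 beside -0.03 for all genes. The fifth was CBP1, a serine carboxypeptidase gene that fell in both cultivars (-1.86 in Nonabokra and -0.83 in IR29). AMY1.2 (0.01), AMY1.5 (0.09) and cbp3 (0.01), a carboxypeptidase gene, did not pass. The summed intensity of the list was 2530 to 2886 in salt-treated Nonabokra and 9158 to 9444 in its control, against 27641 to 30703 in salt-treated IR29 and 5158 to 5295 in the IR29 control. Seed storage protein genes, markers of grain that is filling, moved little: 6 of 11 passed higher and none lower, with a median of 0.04. The 11 storage genes summed to 1699 to 1846 in salt-treated Nonabokra and 1473 to 1548 in its control, against 1616 to 1819 in salt-treated IR29 and 1694 to 1816 in the IR29 control. Their response differences ran up to 0.34 for GLB, the globulin gene, which carried most of that signal. The part of seed tissue in these results was not tested.

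Synthesis of diterpenoid phytoalexins was the gene list with the lowest median. Of its 16 measured genes 13 were lower and none higher in response difference, with a median of -2.85. In 11 of them the transcripts fell in Nonabokra and rose in IR29. CPS2, the diphosphate synthase at the start of the phytocassane branch, read 5.47, 6.43 and 5.57 in salt-treated Nonabokra and 120.3, 123 and 125 in its control. It read 475, 540.4 and 502 in salt-treated IR29 and 15.3, 13.1 and 16.2 in the IR29 control, a response difference of -6.75 ± 0.15 (limma adjusted p = 3.0e-17). CYP71Z7, a cytochrome P450 of the same branch, read 15.4, 11.5 and 10.2 in salt-treated Nonabokra and 520.2, 517 and 528 in its control. In IR29 it read 612, 572 and 584 after salt and 31.8, 32.6 and 34.0 in the control, and the response difference was -7.88 ± 0.10 (limma adjusted p = 7.5e-21). For both genes unstressed Nonabokra and salt-treated IR29 were the bright groups, and the groups did not overlap within a cultivar.

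The momilactone genes differed in the same direction. CPS4, their diphosphate synthase, averaged 31.8 in salt-treated Nonabokra and 128 in its control, against 158 in salt-treated IR29 and 10.5 in the IR29 control (n = 3), a response difference of -4.31. KSL4, the synthase that closes the momilactone skeleton, averaged 8.39 ± 0.223 and 53.7 ± 13.3 in salt-treated and control Nonabokra, against 170.2 ± 6.94 and 8.67 ± 0.124 in salt-treated and control IR29 (SD, n = 3), a response difference of -4.41. The P450 genes CYP99A2 (-5.97) and CYP99A3 (-3.76), which act on that skeleton, and OsMAS (-1.14), the dehydrogenase that yields momilactone A, were lower too. CYP701A8, a P450 that works in both branches, had a response difference of -4.94.

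Most of these genes are chromosomal neighbours. In the RefSeq order, the chromosome 2 run from CYP76M5 to CYP76M6 spans 10 protein-coding genes, of which 9 were measured and 8 were lower, 6 of them at 2-fold or more. It includes LOC4329723, unnamed in the table and not on the list, which changed by -2.36 in Nonabokra and by 4.27 in IR29 (response difference -6.63). The ends of the run were dim: CYP76M5 (-0.13) and KSL5 (-0.30) passed with small differences, and CYP76M6 (0.01) did not pass. The call of CYP76M5 was lost when the spread was taken from the 4 compared groups alone. In the chromosome 4 run from CPS4 to CYP99A2, all 5 measured genes of 6 were lower at 2-fold or more, from -5.97 to -1.14. The remaining genes of the list, KSL10 (-0.01) and the gene the table names CYP76M7 (0.02), lie elsewhere, were at the floor in all 4 groups and did not pass. Inside the chromosome 2 run were also KSL7 (-3.19, and -0.30 by its dimmer probe set), CYP71Z6 (-2.52) and CYP76M8 (-2.33).

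**Figure D2:**
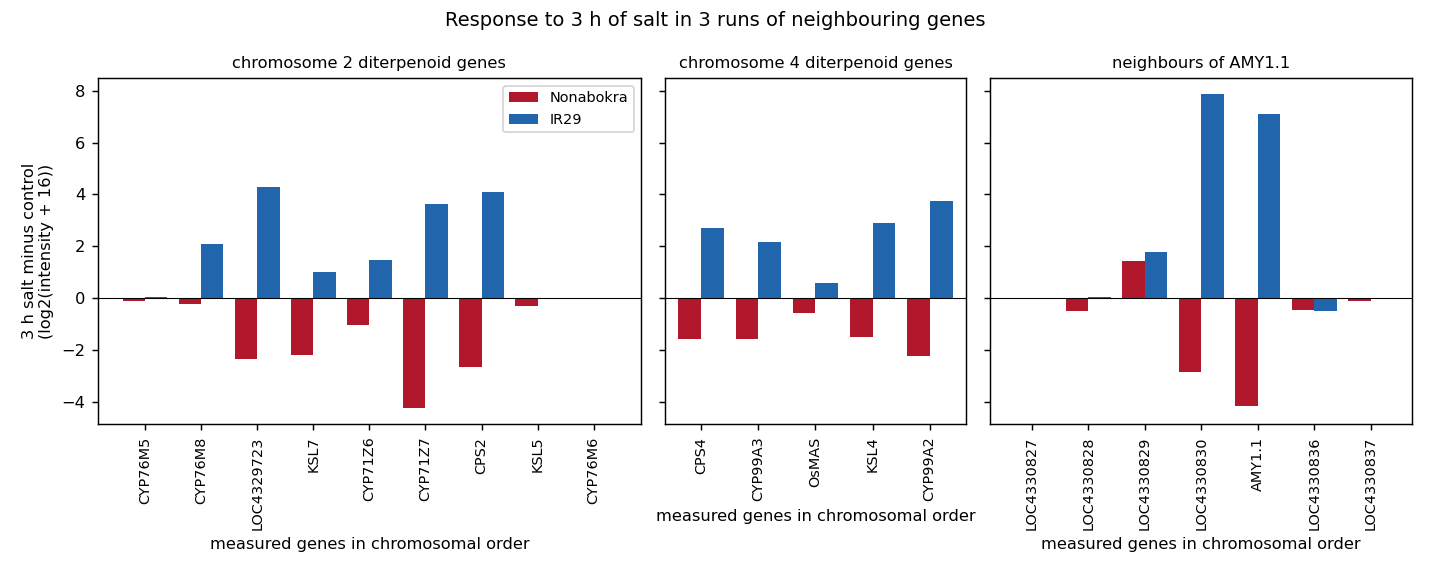
Response to 3 h of salt (salt minus control, log2(intensity + 16)) of the measured genes in 3 runs of chromosomal neighbours, in RefSeq order and not to distance, with Nonabokra in red and IR29 in blue. From LOC4329723 to CPS2, from CPS4 to CYP99A2, and for LOC4330830 and AMY1.1, every red bar points down and every blue bar up.

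Defence and jasmonate genes gave a mixed picture around a few large differences. PBZ1, a pathogenesis-related gene of rice also induced by the fungicide probenazole, read 1332, 1235 and 1319 in salt-treated Nonabokra and 6521, 6347 and 6339 in its control. It read 23570.4, 21340.5 and 23460.3 in salt-treated IR29 and 947, 913 and 972 in the IR29 control. Salt brought the gene to its highest level in IR29 and lowered it in Nonabokra, with a response difference of -6.86 ± 0.10 (limma adjusted p = 3.2e-20). Pir7b, an esterase gene known from bacterial challenge, rose by 2.90 in IR29, and its change of -0.21 in Nonabokra did not pass. Of 16 defence genes 9 were lower and 2 higher, with a median of -0.45. The chitinase gene Cht1 (-1.25) and NPR3 (-1.60), a relative of the salicylic acid receptor NPR1, were lower, and the chitinase gene Cht10 (1.22) was higher.

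Of 18 jasmonate synthesis genes 7 were lower and 3 higher, with a median of -0.20. CM-LOX2, a lipoxygenase gene, averaged 15.1 ± 0.804 in salt-treated Nonabokra and 84.2 ± 10.7 in its control, against 109.8 ± 10.4 in salt-treated IR29 and 31.5 ± 0.521 in the IR29 control (SD, n = 3). Its response difference was -3.09, while another of its 3 probe sets gave 0.03. CM-LOX1 (-1.93) and the oxophytodienoate reductase gene OPR1 (-1.71) were lower as well. AOS4, an allene oxide synthase gene, fell in both cultivars and less in Nonabokra (-0.77 against -2.89 in IR29). Among the WRKY factors, WRKY62, a repressor of defence genes in rice, fell in Nonabokra and rose by 1.58 in IR29, whereas WRKY71 rose in both and by more in Nonabokra (2.21 against 0.44 in IR29). The repressors of the JAZ family did not share a direction: 6 of 17 were higher, among them JAZ13 (2.22) and JAZ10 (1.36), and 4 lower, among them JAZ11 (-1.13).

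**Figure D3:**
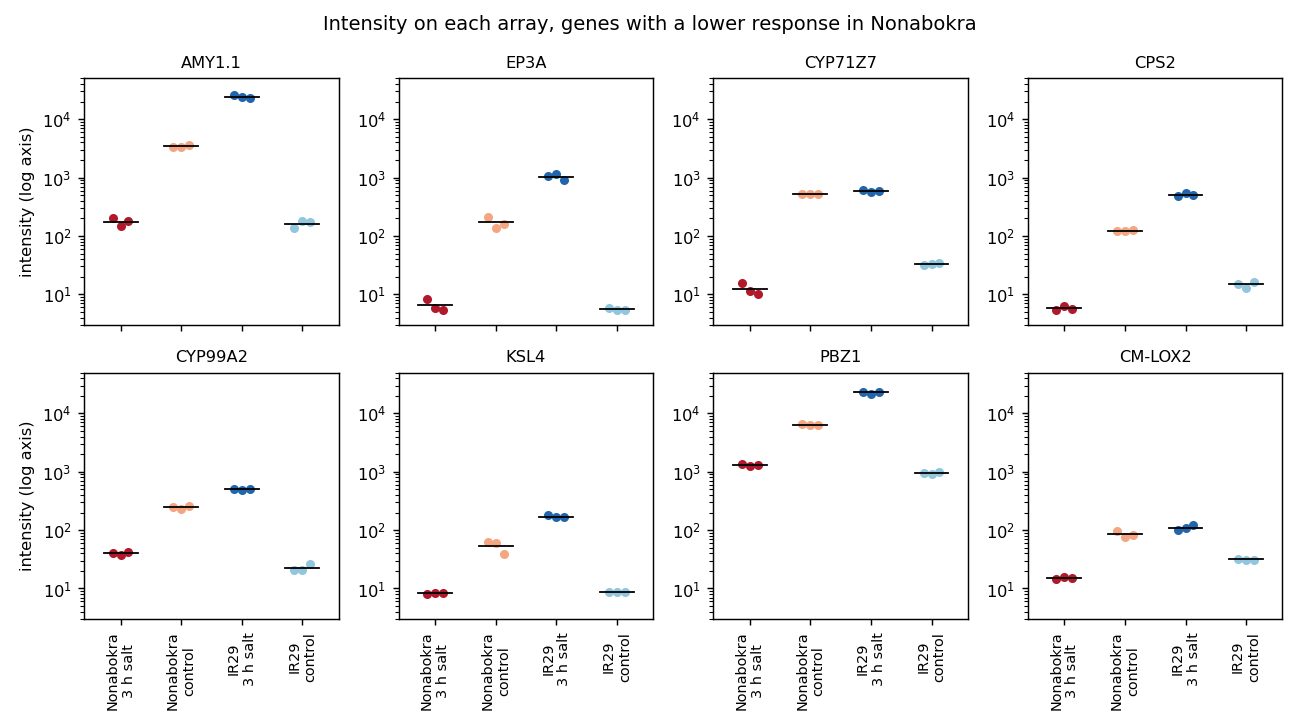
Intensity (log axis) on each of the 12 arrays for 8 genes with a lower response in Nonabokra; points are arrays and bars are means of 3 arrays. In every panel salt-treated Nonabokra lies below its control and salt-treated IR29 above its control, for example 1295 against 6402 and 22790.4 against 944 for PBZ1.

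LEA and dehydrin genes rose in both cultivars, and most rose more in Nonabokra. All 9 LEA and dehydrin genes rose in Nonabokra and in IR29, with median changes of 4.38 and 2.61. Of the 9, 7 had a passing higher response difference and none a lower one, and the median was 1.55. RAB16D, a dehydrin gene, read 6917, 6686 and 6849 in salt-treated Nonabokra, against 76.8, 59.5 and 66.0 in its control. It read 792, 761 and 738 in salt-treated IR29, against 65.2, 63.4 and 64.3 in the IR29 control. The controls of the cultivars overlapped and the salt groups were far apart, with a response difference of 3.08 ± 0.09 (limma adjusted p = 4.4e-15). Its relatives RAB16B (2.87), RAB16C (2.45) and RAB21 (1.89) differed likewise. RAB21 was the brightest, at 27939 ± 1440.1 in salt-treated Nonabokra and 1626 ± 83.0 in its control, against 6995 ± 468 in salt-treated IR29 and 1507 ± 81.6 in the IR29 control (SD, n = 3). OsPM19L1 (1.55), rab25 (1.45) and LEA19 (1.33) were the others that passed. A dimmer probe set of OsPM19L1 showed a response difference of 0.04. EM, a seed LEA gene, averaged 558 and 11.5 in salt-treated and control Nonabokra, against 676 and 12.6 in salt-treated and control IR29, and did not pass (-0.23). Dhn1 did not pass either (-0.25), except when replicate 3 of the Nonabokra control was left out, which gave -0.29, in the opposite direction to the 7 that passed.

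Breakdown and signalling of abscisic acid also differed. ABA8OX1, a hydroxylase gene that inactivates the hormone, read 1895, 1595 and 1793 in salt-treated Nonabokra and 405, 351 and 423 in its control. It read 242, 215 and 241 in salt-treated IR29 and 336, 332 and 328 in the IR29 control. Only the Nonabokra salt arrays stood high, and the response difference was 2.61 ± 0.09 (limma adjusted p = 5.5e-14). ABA8OX2 rose in both cultivars and by more in Nonabokra (1.24). The protein phosphatases 2C, the family that holds the negative regulators of abscisic acid signalling, had 15 of 56 higher and 10 lower, beside 15.5% and 22.0% of all genes, with a median of -0.02. The response differences of largest size were PP2C51 (3.08), PP2C30 (2.15), PP2C68 (1.70) and OsPP2C08 (1.52), all higher. PP2C51 averaged 200.4 ± 14.1 in salt-treated Nonabokra and 5.40 ± 0.751 in its control, against 10.2 ± 1.55 in salt-treated IR29 and 5.96 ± 0.958 in the IR29 control (SD, n = 3), and its other probe set gave 0.14. The SAPK kinases, which these phosphatases hold in check, went both ways. SAPK1 (1.32) rose more in Nonabokra, and SAPK9 fell in both cultivars and by more in Nonabokra (-3.53 against -1.73 in IR29).

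**Figure D4:**
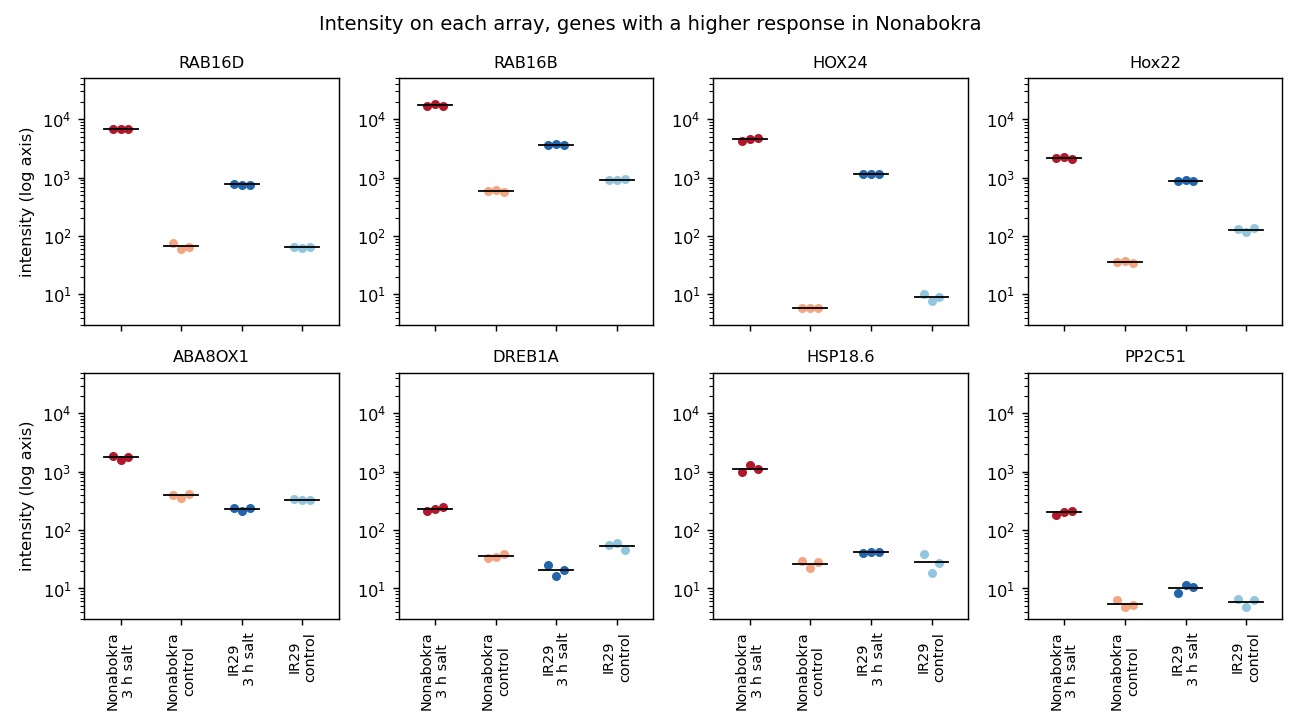
Intensity (log axis) on each of the 12 arrays for 8 genes with a higher response in Nonabokra; points are arrays and bars are means of 3 arrays. Salt-treated Nonabokra is the highest group in every panel, for example 4524 against 5.81 in its control for HOX24, beside 1154 in salt-treated IR29 and 8.98 in the IR29 control.

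Among 16 regulators of salt and drought responses 11 were higher and 1 lower, with a median of 0.59. HOX24 and Hox22 encode homeodomain-leucine zipper factors. HOX24 read 4215, 4656 and 4699.9 in salt-treated Nonabokra and 5.82, 5.77 and 5.86 in its control, against 1157, 1166 and 1139 in salt-treated IR29 and 10.2, 7.65 and 9.13 in the IR29 control (response difference 2.15 ± 0.13, limma adjusted p = 1.6e-10). Hox22 rose by 5.40 in Nonabokra and by 2.64 in IR29. Both genes thus rose in each cultivar from a dim or moderate control level. The DREB1 genes, cold- and drought-linked activators, moved apart instead. DREB1A read 213, 228 and 253 in salt-treated Nonabokra and 33.9, 34.1 and 39.6 in its control, against 24.9, 16.5 and 21.0 in salt-treated IR29 and 54.6, 60.3 and 46.1 in the IR29 control. It rose in Nonabokra and fell in IR29, a response difference of 3.17 ± 0.16 (limma adjusted p = 1.4e-11). DREB1B averaged 19.4 and 9.33 in salt-treated and control Nonabokra, against 6.82 and 128 in salt-treated and control IR29, so its difference of 3.13 came mostly from a fall in IR29. DREB1G (1.25) fell in IR29 with a change of 0.10 in Nonabokra that did not pass. NAC6 (0.75) was higher and NAC5 (-0.92) the single lower gene of the list. Factors prominent in abscisic acid and drought signalling that did not pass were BZIP23 (0.14), TRAB1 (0.29) and DREB2A (0.29).

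Classical salt genes differed by less. The mannose-binding lectin gene salT rose in both cultivars and by more in Nonabokra (1.41 against 0.63 in IR29, response difference 0.77 ± 0.10, limma adjusted p = 5.6e-06). P5CS1, the proline synthesis gene, did so too (0.69). HKT1;5, the sodium transporter gene of the xylem parenchyma, was dim at 19.1 ± 0.917 in salt-treated Nonabokra and 27.9 ± 5.04 in its control, against 16.8 ± 1.15 in salt-treated IR29 and 19.9 ± 2.17 in the IR29 control (SD, n = 3). It did not pass (-0.19, limma adjusted p = 0.21). Of 26 sodium and potassium transport genes 9 were lower and 4 higher, with a median of -0.05. HAK17 (-2.78), a potassium transporter gene, fell by 2.94 in Nonabokra, and its change of -0.16 in IR29 did not pass. AKT1, the root potassium channel gene, fell by 1.74 in IR29 with a change of -0.09 in Nonabokra that did not pass (response difference 1.65). Among CBL calcium sensors and CIPK kinases 13 of 31 were higher and 7 lower, with CIPK16 (1.45) and CIPK6 (1.37) at the upper end and CBL9 (-1.59) and CIPK23 (-1.45) at the lower.

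Heat shock protein genes were higher in 11 and lower in 4 of 25, with a median of 0.23. HSP18.6, a small heat shock protein gene, read 978, 1311 and 1108 in salt-treated Nonabokra and 29.2, 22.6 and 28.0 in its control. It read 40.4, 42.8 and 41.6 in salt-treated IR29 and 38.5, 18.7 and 27.6 in the IR29 control. Only the Nonabokra salt arrays were bright, and the response difference was 4.34 ± 0.21 (limma adjusted p = 4.5e-12), the highest among genes with an informative name. It has 3 probe sets, and the lowest of their response differences was 0.04. HSP26.2 (1.75), HSP17.4 (1.53) and CLPB1 (1.27), a chaperone that resolves aggregates, were also higher. The heat shock factors went both ways, 3 of 21 higher and 5 lower, near the 15.5% and 22.0% of all genes. HSF05 (1.68) rose in both cultivars, and HSF10 fell by 0.69 in Nonabokra and rose by 2.16 in IR29.

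The root markers on the list fell in IR29, though the wider list of iron and silicon transport genes did not fall there as a whole. The 4 root markers on the list, IRT1, OsCASP1, Lsi1 and Lsi2, all fell there and all had a higher response in Nonabokra, with a median of 2.17. Lsi1, the silicon channel gene of the root, read 1392, 1315 and 1371 in salt-treated Nonabokra and 5595, 6228 and 6136 in its control. It read 309, 317 and 276 in salt-treated IR29 and 6151, 6933 and 7019.8 in the IR29 control. Salt lowered it in both cultivars from similar control levels and left it lowest in IR29 (response difference 2.28 ± 0.10, limma adjusted p = 8.3e-13). Lsi2, the silicon efflux partner, followed (2.06). IRT1, an iron uptake transporter gene, averaged 29.2 and 12.3 in salt-treated and control Nonabokra, against 70.0 and 512 in salt-treated and control IR29 (3.29). OsCASP1, a Casparian strip protein gene, averaged 28.4 and 11.2 in salt-treated and control Nonabokra, against 67.0 and 129.9 in salt-treated and control IR29 (1.52, and as low as 0.50 by another of its 3 probe sets). In the Nonabokra control IRT1 and OsCASP1 were close to the dim end. The summed intensity of the 4 was 2035 to 2168 in salt-treated Nonabokra and 7539 to 8405 in its control, against 558 to 622 in salt-treated IR29 and 8940 to 9883 in the IR29 control. Lsi1 and Lsi2 carried most of that sum in every group.

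Not all root transport genes moved with the markers. Of 38 iron and silicon transport genes 8 were higher and 14 lower, with a median of 0.00. In the response of IR29 itself 14 of the 38 rose and 16 fell, and in that of Nonabokra 10 rose and 14 fell. The 38 summed to 66877 to 69039 in salt-treated IR29 and 59508 to 60578 in its control. In Nonabokra they summed to 25935 to 27536 after salt and 35335.5 to 36781 in the control. YSL15 (2.22), an iron-phytosiderophore transporter gene, averaged 17.1 and 15.7 in salt-treated and control Nonabokra, against 699 and 3143 in salt-treated and control IR29. Nramp1 (-2.16), a metal transporter gene, read 25.7, 32.4 and 32.0 in salt-treated Nonabokra and averaged 32.7 in its control, against means of 9228 and 2176 in salt-treated and control IR29. Both were dim in both Nonabokra groups, and neither change in Nonabokra passed. Among aquaporins 11 of 25 were higher and 4 lower, with TIP3-1 (2.14), a tonoplast channel gene of seeds, higher and PIP2-5 (-1.34) and Lsi6 (-1.23) lower.

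Several of the largest higher responses in Nonabokra belonged to other functions. GLP2, a germin-like protein gene, rose by 1.06 in Nonabokra and fell by 3.02 in IR29 (response difference 4.08 ± 0.16, limma adjusted p = 2.9e-13). Its mean intensity was 209.8 in salt-treated Nonabokra and 92.7 in its control, against 147 in salt-treated IR29 and 1314 in the IR29 control. PLP2, a patatin-like lipase gene, had a mean intensity of 1143 in salt-treated Nonabokra and 133 in its control, against 365 in salt-treated IR29 and 647 in the IR29 control (3.76). GLN1-3, a cytosolic glutamine synthetase gene, rose by 3.29 in Nonabokra, and its change of -0.15 in IR29 did not pass. DUR3, a urea transporter gene, rose by 1.88 in Nonabokra and fell by 0.57 in IR29. LTP-2, a lipid transfer protein gene, rose in both cultivars (5.59 in Nonabokra and 2.22 in IR29), as did the sugar exporter gene SWEET15 (5.62 in Nonabokra and 3.54 in IR29). GDH2 (-1.78), a glutamate dehydrogenase gene, rose in IR29 alone.

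At the lower end, EIL1B, a relative of the ethylene regulator EIN3, read 7.62, 8.05 and 7.72 in salt-treated Nonabokra and 229, 202 and 204 in its control. In IR29 it stayed at the floor, at 7.78, 9.62 and 9.95 after salt and 9.92, 9.65 and 8.10 in the control. The response difference of -3.25 ± 0.11 (limma adjusted p = 2.1e-14) goes with a fall in Nonabokra and no passing change in IR29. BBD1, a bifunctional nuclease gene, fell in both cultivars (-7.06 in Nonabokra and -3.91 in IR29), to 52.1 against 9048 in the Nonabokra control and to 101 against 1739.7 in the IR29 control. The highest response differences over all probe sets were LOC4348272 (5.12), LOC4351887 (5.05) and a probe set with no gene in the table (4.98). LOC4348272 averaged 752 in salt-treated Nonabokra, against 6.01 in its control, 5.97 in salt-treated IR29 and 6.00 in the IR29 control. All 3 were dim in both IR29 groups.

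Most cytosolic ribosomal protein genes and all core histone genes fell with salt in both cultivars, with no response difference of 2-fold or more. All but 2 of 23 cytosolic ribosomal protein genes fell in each cultivar, with median changes of -0.36 in Nonabokra and -0.39 in IR29, and their response difference was higher in 2 and lower in 2. All 6 core histone genes fell in both, and 2 were lower, H2B.5 (-0.37) and H2B.6 (-0.30). Of 41 cyclin and cell cycle kinase genes 12 were lower and 2 higher, including PCNA (-0.67), the replication clamp, which fell in both cultivars. Of 57 auxin response genes 18 were lower, 3 of them at 2-fold or more, and 6 were higher. SAUR39 (-1.49) and PIN5 (-1.07) were among the lower ones and rose in IR29 alone. The chlorophyll synthesis genes CHLD (-0.77) and CHLH (-0.70) were among 7 of 22 photosynthesis genes with a lower response. PPDK1, counted in the photosynthesis list by its name, was lower at 2-fold or more. It averaged 1604 and 1302 in salt-treated and control Nonabokra, against 1468 and 411 in IR29. PSAG was the 1 higher gene of that list, also at 2-fold or more, averaging 3294 and 497 in salt-treated and control Nonabokra, against 2331 and 742 in IR29. Among 6 clock genes CCA1 (0.57) was higher and PRR1 (-0.46) and PRR95 (-0.43) lower, and controls and 3 h samples were not taken after the same time in solution.

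**Figure D5:**
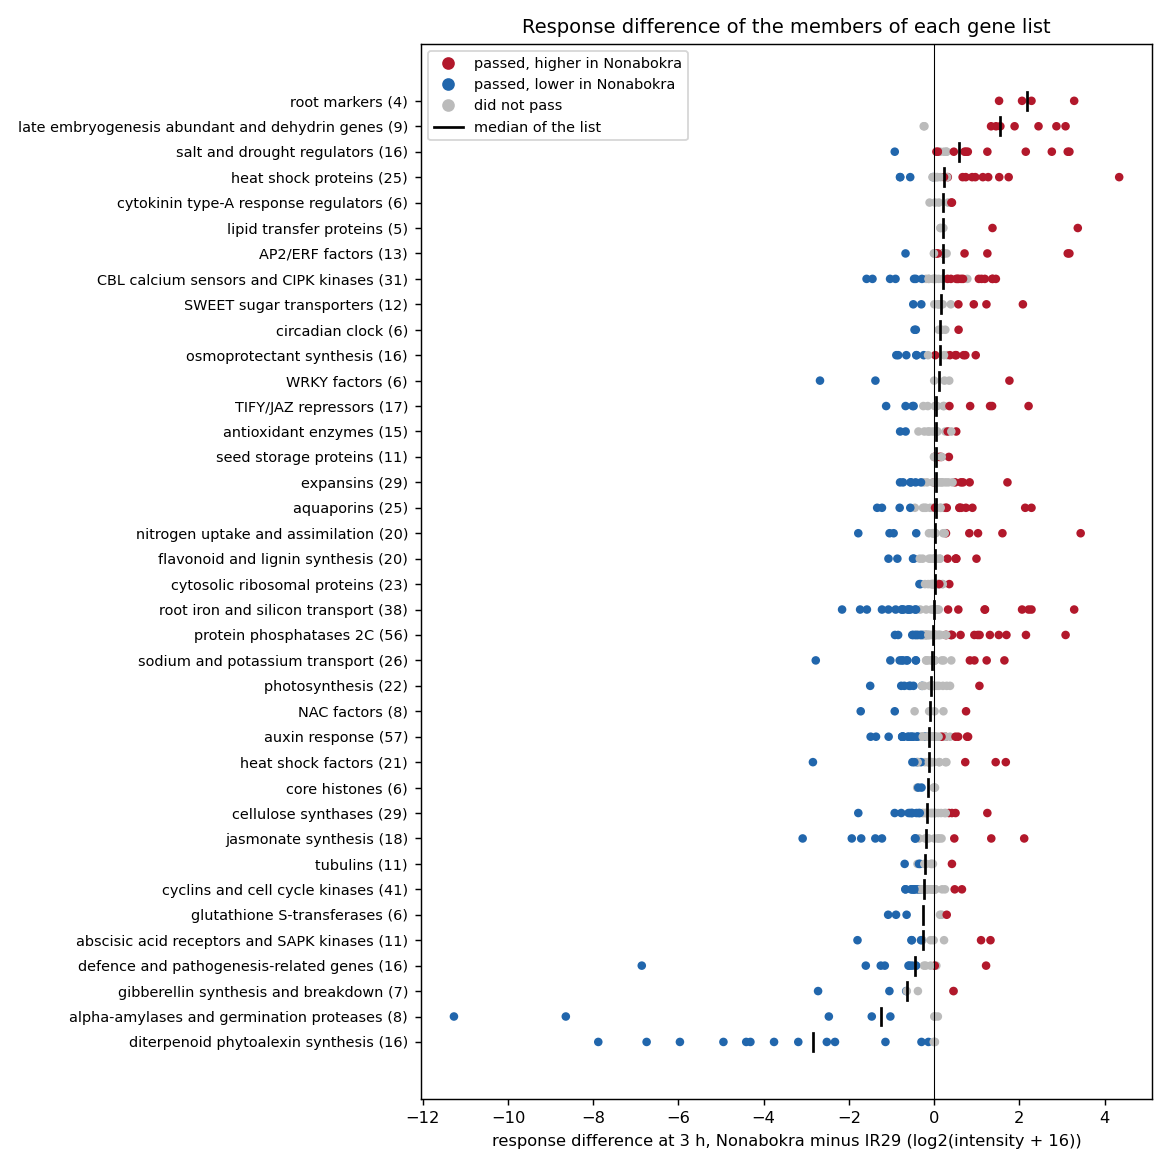
Response difference at 3 h (Nonabokra minus IR29, log2(intensity + 16)) of each member of the gene lists with at least 4 members, with the number of members in brackets; red and blue points passed higher and lower, grey points did not pass, and a bar marks the list's median. Root markers (2.17) and LEA genes (1.55) lie at the upper end and diterpenoid genes (-2.85) and alpha-amylases and germination proteases (-1.25) at the lower.

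The response differences were set beside those after 6 h of salt, which use the same control arrays, and the change between the times was tested over the salt arrays. That test passed in the direction of a higher response difference at 3 h for 2202 of 17905 genes (12.3%) and of a lower one for 2099 (11.7%), and at 2-fold or more in either direction for 657 (3.67%). For AMY1.1 the response difference was -11.27 at 3 h and -4.34 at 6 h (limma adjusted p of the change 2.1e-17). For EP3A it was -8.64 at 3 h and -3.10 at 6 h (1.7e-16), and for CPS2 -6.75 and -3.33 (2.5e-12). The response of these 3 was lower in Nonabokra at both times, by less at 6 h. PBZ1 moved less, at -6.86 and -5.58 (1.2e-08). HSP18.6 had 4.34 and 0.72 (1.7e-10), and HOX24 had 2.15 at 3 h and -1.79 at 6 h (4.0e-14), a turn of direction. DREB1A and DREB1B went the other way, at 3.17 and 3.13 at 3 h and 4.80 and 6.90 at 6 h. For ABA8OX1 (2.61 and 2.73) and EIL1B (-3.25 and -3.14) the change between the times did not pass.

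Pokkali, a tolerant landrace, gives a further 3 h response measured on arrays of its own. AMY1.1 averaged 30.5 in salt-treated Pokkali and 6.79 in its control, a change of 1.03, beside -4.18 in Nonabokra and 7.09 in IR29. EP3A (0.00), CPS4 (0.07) and KSL4 (0.02) were dim in both Pokkali groups, with mean intensities of at most 10.1, and CYP701A8 averaged 53.0 after salt and 57.3 in the control. RAB16D was already bright in unstressed Pokkali: it averaged 7841 after salt and 6764 in the control, a change of 0.21, so that its Pokkali control was near salt-treated Nonabokra (6817) and far above the controls of Nonabokra (67.4) and IR29 (64.3). RAB16B likewise averaged 9179 in salt-treated Pokkali and 3219 in its control, a change of 1.51, beside 4.84 in Nonabokra and 1.97 in IR29. PLP2 averaged 545 in salt-treated Pokkali and 542 in its control, and GLN1-3 averaged 116 after salt and 114 in the control. HSP18.6 (2.98), ABA8OX1 (2.62) and DREB1A (2.91) had positive changes in Pokkali.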

How the data were processed

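Affymetrix rice genome arrays measured total RNA of whole seedlings, labelled by in vitro transcription from the 3′ end. The authors' deposited values are linear intensities per probe set. Per the submitters' processing notes the scanner software was GCOS, and the summarisation and scaling of probes are not given in the sources used here. Of 57381 probe sets in the table, 187 (AFFX and RPTR names) served as controls only. Values were turned into log2(intensity + 16). limma 3.58.1 in R 4.3.3 fitted 1 mean per group to all 27 arrays (9 groups, 18 residual degrees of freedom), and p-values of its moderated test were adjusted by Benjamini-Hochberg within a comparison across 57194 probe sets and called at 0.05. Precision is limited by having 3 arrays per group; among the brightest 30% of probe sets the residual SD had a median of 0.105.

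A single gene was given for 22436 of them, several genes for 95, and no gene for 34663. The 17905 genes are represented by their brightest probe set, and 2458 carry an informative name from RefSeq (assembly ASM3414082v1) symbols and synonyms. Named genes are the 14 highest and 14 lowest passing response differences among informative names whose array-wise changes did not overlap between cultivars, the 5 highest and 5 lowest moving in opposite directions, the 3 highest and 3 lowest of all probe sets, up to 4 members per list, and 19 genes chosen singly. All members of the LEA, diterpenoid, amylase and root marker lists were then named, as were neighbouring genes, BZIP23, TRAB1 and DREB2A, after their values were seen. The groups compared, the lists and the genes were chosen with earlier results of these data known. Same-numbered replicates were not paired: in none of 6 pairs of groups did all 3 residual correlations pass 0.1.

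On simulated data with normal noise, changes of 0.5, 1 and 2 (log2) were planted in 67, 67 and 66 of 57194 probe sets. The planted ones came from the brightest 30% alone, and all others had no difference. For the response difference at 3 h, 52.2%, 88.1% and 98.5% were recovered, with 8 false calls among 167. These shares do not carry over to dim probe sets or to the real data, in which 25.4% passed. Alternatives changed the groups fitted, filter, scaling, pseudocount, spread model, replicate block and single arrays. Promoter and protein sequences were not used here.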

Additional observations from a re-analysis of the deposited data

Results flagged for a closer look

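A set of 10 named genes was marked because the cultivars' responses at 3 h differed by the test of the difference itself and went in opposite directions. Lower in Nonabokra were AMY1.1 (-11.27), EP3A (-8.64), CYP71Z7 (-7.88), PBZ1 (-6.86) and CPS2 (-6.75). Higher in Nonabokra were GLP2 (4.08), PLP2 (3.76), IRT1 (3.29), DREB1A (3.17) and DREB1B (3.13). In Nonabokra IRT1 and DREB1B were near the dim end, averaging 12.3 and 9.33 in the control and 29.2 and 19.4 after salt. The differences of both came mostly from falls in IR29. All 10 values are response differences on the log2(intensity + 16) scale with 3 arrays per group, and each kept its call in all 20 alternatives run. The genes were chosen for large differences on these same arrays, so the kept calls are not independent support.

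Outside the tested probe sets, the 18S ribosomal RNA control showed a response difference of 6.09 (SE 1.65), with mean intensities of 383 in salt-treated Nonabokra and 374 in its control, against 22.8 in salt-treated IR29 and 2492 in the IR29 control. The 28S control showed 5.92 (SE 1.65). The log2 ratio of 5′ to 3′ probe sets, a sign of RNA integrity, had response differences of 0.33 (SE 0.14) for ubiquitin, 0.65 (SE 0.56) for actin, 0.24 (SE 0.28) for gapdh and -0.09 (SE 0.15) for cyph. For ubiquitin it changed by 0.24 in Nonabokra and by -0.09 in IR29, and for actin by -0.13 in Nonabokra and by -0.79 in IR29. The added poly-A spikes changed by -0.61 in Nonabokra and by -0.48 in IR29. Their part in the results was not tested.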

How the results depend on the processing

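The count of passing probe sets for the response difference (14543) stayed within 1.5 times in every alternative except the stricter threshold of adjusted p under 0.01, which gave 7540, and leaving out single arrays gave 10021 to 20804. The replicate block, run although same-numbered replicates were not paired, gave 15036. At 2-fold or more 974 were higher (943 to 1047 without single arrays) and 1157 lower (1104 to 1250), the second being 658 with a pseudocount of 64. For IR29 alone the count of 36580 became 19048 without the dimmest 40% and 20236 after quantile normalization (29336 to 36608 without single arrays), and its share of higher calls ran from 24.6% as deposited to 74.8% after median centring. For the control levels 32034 became 14739 and 16113 under the same 2 settings and 21206 without replicate 1 of the IR29 control (highest 32017). The cause was not tested. Nonabokra's own count stayed between 15018 and 15955 without single arrays, the salt levels between 11978 and 13201, and the change from 3 h to 6 h between 5583 and 6465. Opposite responses numbered 294 to 334 genes and crossed levels 495 to 544.

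Of 177 named genes and probe sets, 107 passed at 2-fold or more, and none of these lost its call in 20 alternatives. Those 107 were picked out by size on the same arrays, so the kept calls are not independent support. Calls were lost in 61 of 3536 checks, in 13 genes with small differences, and none reversed. List medians under other scalings and pseudocounts, chosen after seeing the data, and with all probe sets of a gene averaged ran from -3.56 to -2.19 for diterpenoid genes, -1.95 to -0.81 for amylases and proteases, and 0.38 to 0.64 for salt regulators. The nitrogen list's median of 0.02 became -0.0015 after median centring. Dim values limit the size of any difference. The promoter motif comparison was not run.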

Other observations

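Nitrogen, cell wall, antioxidant and gibberellin genes differed in both directions, as did all genes, of which 15.5% were higher and 22.0% lower. Of 20 nitrogen genes 5 were higher and 4 lower. AMT1-2 (1.60), an ammonium transporter gene, rose in Nonabokra and fell in IR29, and AMT3-2 (-1.05) rose in both and by more in IR29. Of 29 cellulose synthase genes 10 were lower and 4 higher: CESA3 (-0.77) and CSLA9 (-0.93) fell in Nonabokra and rose in IR29 and CSLA5 (1.25) was higher. Expansins were split evenly, 6 of 29 each way, and EXPB2 (1.72) rose in Nonabokra and fell in IR29. Of 20 flavonoid and lignin genes 5 were higher and 4 lower, including CAD2 (0.99) and 4CLL4 (-1.07).

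Of 15 antioxidant enzyme genes 2 were higher and 2 lower, and the cytosolic ascorbate peroxidase APX1 (0.52) was higher and the chloroplast forms APX7 (-0.80) and APX8 (-0.67) were lower, both falling in Nonabokra and rising in IR29. Of 6 glutathione S-transferase genes 3 were lower and 1 higher, and the lowest was GST1 (-1.08). Of 7 gibberellin genes 3 were lower and 1 higher: CYP701A9 (-2.72), KAO (-1.05) and CPS1 (-0.66) were lower and GA20OX3 (0.45) was higher. CPS1, KAO and GA20OX3 belong to gibberellin synthesis itself, and CYP701A9 is a relative of its oxidase. Of 6 type-A response regulators of cytokinin signalling all fell in IR29 and 5 fell in Nonabokra. RR6 (0.40) and RR9 (0.42) fell less in Nonabokra, and the response difference of the other 4 did not pass. RR9 did not pass in 7 of 20 alternatives.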
